A study of Mus musculus with 9 samples.

Results

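The genes described here are 39 that govern the uptake and oxidation of fatty acids, together with genes that the nuclear receptor PPARA is known to induce. They were given by symbol and fall into 5 roles: 3 uptake genes, 19 mitochondrial genes, 6 peroxisomal genes, 9 genes known to be induced by PPARA, and 2 regulators, Ppara itself and its coactivator Ppargc1a. All 39 were found among the 52160 symbols analysed, and all 39 were among the 18067 that passed the filter on low counts. Their counts came from polyadenylated RNA of whole mouse kidney at 16 weeks of age, in 9 libraries on a C57Bl/6N background. The 3 wild-type (WT) libraries came from mice of a commercial supplier, the 3 ΔPod libraries from mice with Ybx1 deleted from podocytes, and the 3 K2A libraries from mice whose podocytes carry a secretion-deficient Ybx1 with K299A and K302A in exon 7. Ybx1 encodes a cold shock protein of nucleus and cytoplasm that some cells also secrete, and podocytes are the epithelial cells of the glomerular filter. The labels name neither the promoter behind the podocyte-specific changes nor the sex of the animals, and nothing in them says that every library is its own animal, so a p-value here weighs only how far these samples spread.

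The kidney is among the tissues that depend most on fatty acids for energy, and proximal tubule cells burn them in mitochondria. Fatty acids are freed from lipoproteins by Lpl, enter cells through carriers such as Cd36, are joined to coenzyme A, pass into mitochondria as carnitine esters through Cpt1a, Slc25a20 and Cpt2, and are shortened step by step in beta-oxidation. Very long chains are shortened in peroxisomes. PPARA, a receptor activated by fatty acids, binds DNA as a pair with RXRA and raises the transcription of many of these genes, for example in fasting.

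Totals ran from 30777142 to 46882253 counts a library. Values are given as CPM, which are counts divided by library totals after scaling with TMM factors. Ybx1 itself was at 1185 to 1585 CPM in WT, 605 to 1167 in ΔPod and 554 to 1152 in K2A, and neither difference passed the edgeR test (log2 fold change -0.58, adjusted p = 0.465, and -0.51, adjusted p = 0.725). Whole-kidney counts check a podocyte genotype only weakly. Markers of proximal tubule, thick limb and distal tubule, collecting duct, podocytes and endothelium were all detected in every group. The libraries stood apart in 3 ways that touch the results. First, counts leaned to long transcripts in WT 1, WT 3, ΔPod 3 and K2A 3, called the long class here, and to short transcripts in WT 2, ΔPod 1, ΔPod 2, K2A 1 and K2A 2, called the short class. Second, the sum of 5 adipocyte markers (Adipoq, Cfd, Retn, Lep and Plin1) was 109 CPM in ΔPod 1, 5.42 in ΔPod 2, 182 in K2A 1 and 479 in K2A 2, and at most 0.315 in the other 5 libraries. In the same order, 10 skeletal muscle markers summed to 293, 162, 115 and 114 CPM, beside 27.3 to 64.2 in the other 5. Likewise, 7 urothelium markers summed to 50.6, 13.8, 79.0 and 105 CPM, beside at most 10.6. None of the muscle or urothelium markers was called in a comparison. The last concerns sex, as 11 male-biased kidney genes summed to 8470 to 10116 CPM in WT, 111 to 357 in ΔPod and 273 to 825 in K2A. The 4 Y-linked genes among them were at 0 in all ΔPod libraries, and the female-specific transcript Xist was at 0 in all WT libraries. In K2A none of the 11 genes was at 0 over the group, and their sum was 273, 320 and 825 CPM in K2A 1, K2A 2 and K2A 3. Genotype and sex of the animals cannot be told apart in these comparisons. As all WT mice came from a commercial supplier, any difference in the origin of the animals cannot be told apart from genotype either.

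Few of the 39 genes differed between the groups beyond the spread of the libraries. In ΔPod against WT, 1 of the 39 fell and 0 rose in the edgeR quasi-likelihood test at a false discovery rate of 0.05, where 0.587% of all tested genes fell and 0.399% rose. In K2A against WT 2 fell and 1 rose, where 0.526% of all genes fell and 0.321% rose. The genes that fell were Cd36 in both mutants and Lpl in K2A, and the gene that rose was Fabp1 in K2A. The median log2 fold change of the 39 was -0.08 in ΔPod and 0.41 in K2A, beside 0.08 and 0.09 over all tested genes. Both comparisons share the WT libraries.

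**Figure D1:**
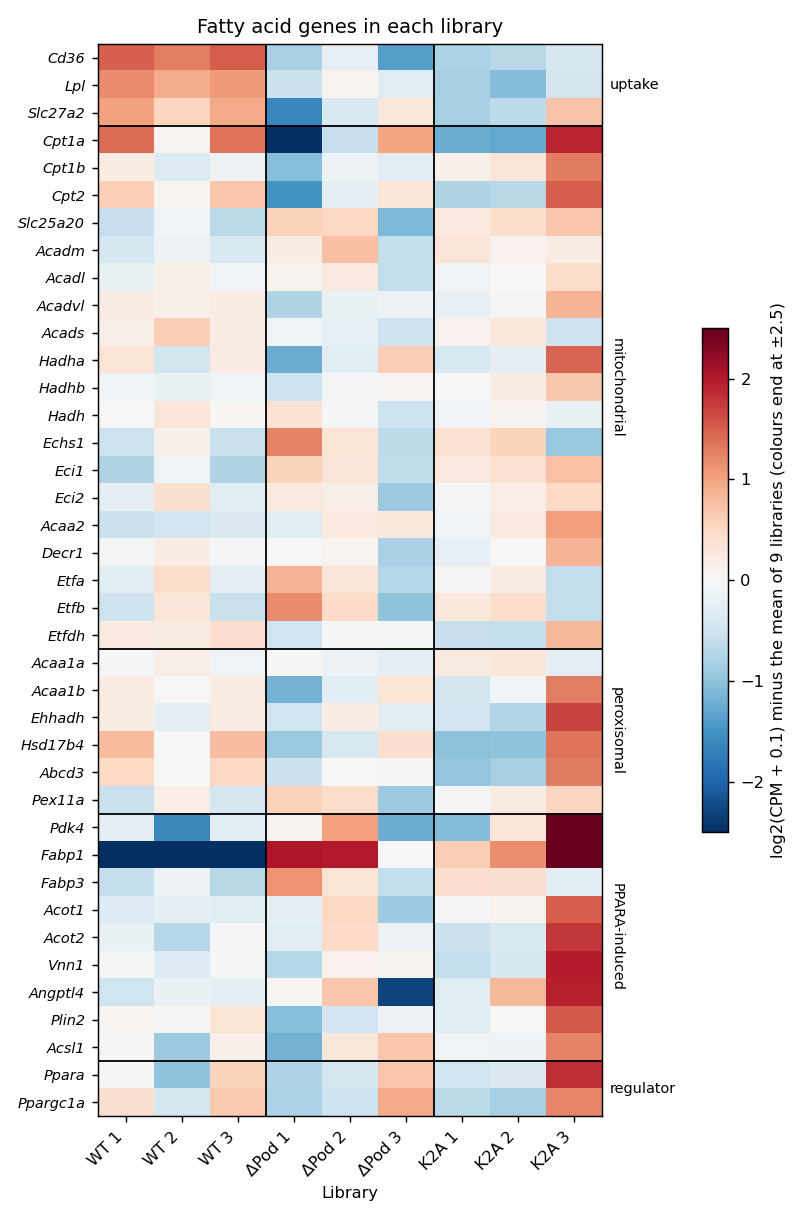
Level of each of the 39 genes in each library as log2(CPM + 0.1) minus its mean over the 9 libraries, with genes in rows by role and libraries in columns. Cd36 and Lpl are high in all 3 WT libraries, whereas K2A 3 holds the highest value for 27 of the 39 genes.

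In WT kidney the levels of the 39 genes per kilobase of transcript spanned a wide range. Slc27a2, a very long chain acyl-CoA synthetase and carrier of the proximal tubule, was highest at 1422 ± 237 CPM per kb (SD, n = 3). Acadm (464), Etfb (422), Hadh (378) and Etfa (321), which serve the mitochondrial spiral, came next, followed by the peroxisomal Ehhadh (232) and by Lpl (216). Cpt1a, which controls the entry of long chains into mitochondria, was at 89.3 ± 38.3 CPM per kb, and Cpt1b, the form of muscle, at 4.29 ± 0.810. Ppara was at 8.62 ± 4.34 and Ppargc1a at 8.26 ± 2.96 CPM per kb, and Fabp1 was lowest at 0.520 ± 0.0721. For 32 of the 38 pairs of neighbours in this order the WT ranges overlapped, so most neighbours cannot be ranked.

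**Figure D2:**
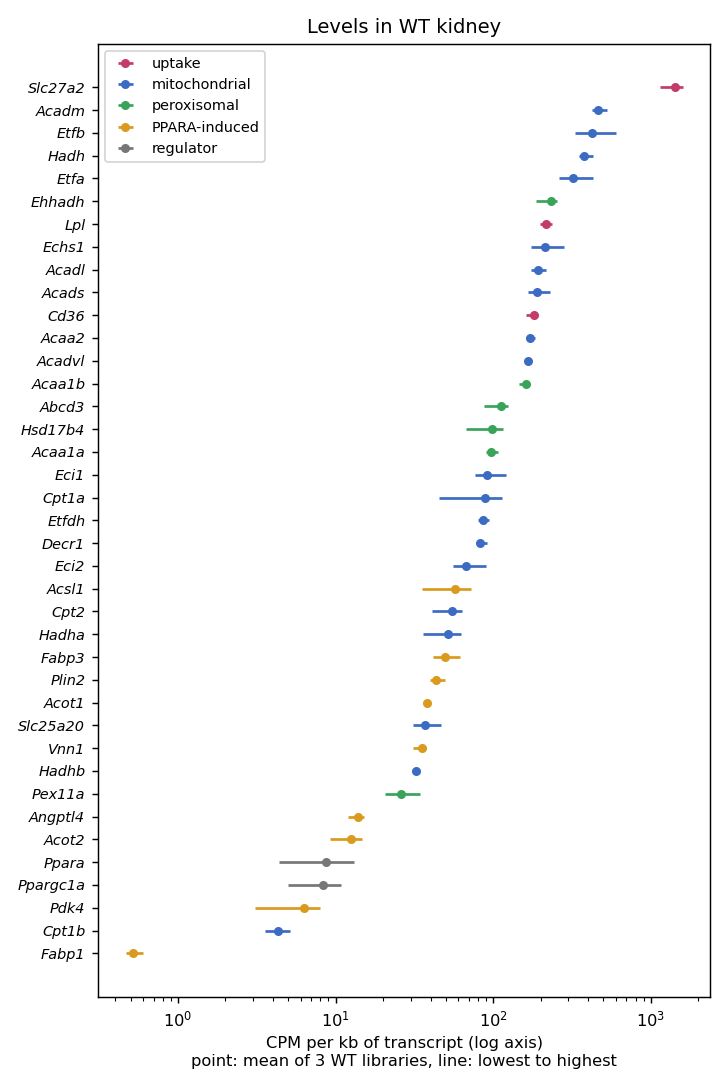
CPM per kilobase of transcript in WT kidney on a log axis, with the mean of 3 libraries as a point and the lowest to highest library as a line. Slc27a2 stands above the other 38 genes at 1422 and Fabp1 below them at 0.520.

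Cd36, the membrane carrier for long-chain fatty acids (chromosome 5, 17781690 to 17888801, mm10), was at 642, 552 and 644 CPM in WT 1, WT 2 and WT 3. It was at 129, 196 and 86.9 CPM in ΔPod 1, ΔPod 2 and ΔPod 3, and at 131, 141 and 169 CPM in K2A 1, K2A 2 and K2A 3. The lowest WT library lay above every mutant library, and the ΔPod and K2A ranges overlapped. Means were 613 ± 52.5, 137 ± 55.0 and 147 ± 19.9 CPM (SD, n = 3), so the mutants held 22.4% and 23.9% of the WT mean. Cd36 fell in both mutants, with log2 fold changes of -2.16 (SE 0.34, edgeR adjusted p = 0.0287) in ΔPod and -2.06 (SE 0.34, adjusted p = 0.0338) in K2A. The difference between K2A and ΔPod was 0.10 (SE 0.33). Among long-class libraries the log2 difference was -2.89 for ΔPod 3 and -1.93 for K2A 3 against WT 1 and WT 3. Among short-class libraries it was -1.79 for ΔPod 1 and ΔPod 2, and -2.03 for K2A 1 and K2A 2, against WT 2. The direction held when any 1 library was left out, but the edgeR call in ΔPod held only without ΔPod 3 (adjusted p = 0.0288) and was lost without WT 1, WT 2, WT 3, ΔPod 1 or ΔPod 2 (adjusted p = 0.0586 to 0.144), and the call in K2A was lost without any 1 of the 6 libraries (0.0548 to 0.201). Upper quartile scaling ended both edgeR calls (adjusted p = 0.0603 and 0.0682), library size alone ended the one in K2A (0.0541), and a fit on the 6 libraries compared ended the one in ΔPod (0.105).

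Lpl, the lipase that frees fatty acids from lipoproteins at the capillary wall (chromosome 8, 68880491 to 68907448), was at 966, 810 and 891 CPM in WT 1, WT 2 and WT 3. It was at 293, 438 and 347 CPM in ΔPod 1, ΔPod 2 and ΔPod 3, and at 241, 200 and 311 CPM in K2A 1, K2A 2 and K2A 3. Neither mutant overlapped WT, and the mutants overlapped each other. Means were 889 ± 77.9, 359 ± 73.6 and 250 ± 56.3 CPM (SD, n = 3). Lpl fell in K2A, with a log2 fold change of -1.83 (SE 0.29, edgeR adjusted p = 0.0291). In ΔPod its log2 fold change was -1.31 (SE 0.29) and did not pass the same edgeR test (adjusted p = 0.0895). The difference between K2A and ΔPod was -0.52 (SE 0.28, edgeR adjusted p = 1.0), so a call in 1 genotype alone does not show that the genotypes differ. Within the long class the log2 difference from WT was -1.42 for ΔPod and -1.58 for K2A, and within the short class -1.18 and -1.88. The edgeR call in K2A held without K2A 3 (adjusted p = 0.0357) and was lost without WT 1, WT 2, WT 3, K2A 1 or K2A 2 (0.106 to 0.188), and it was lost with library size alone (0.0628).

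Slc27a2 (chromosome 2, 126552407 to 126588243) was at 4642, 3359 and 4449 CPM in WT 1, WT 2 and WT 3. It was at 745, 1785 and 2830 CPM in ΔPod 1, ΔPod 2 and ΔPod 3, and at 1299, 1464 and 3794 CPM in K2A 1, K2A 2 and K2A 3. All ΔPod libraries lay below WT, whereas K2A 3 lay above WT 2. Neither log2 fold change passed, at -1.22 (SE 0.57, edgeR adjusted p = 0.381) in ΔPod and -0.93 (SE 0.57, adjusted p = 0.661) in K2A. Within each group the long-class libraries were higher, by 0.44 on the log2 scale in WT, 1.296 in ΔPod and 1.46 in K2A. An exon of Slc27a2 overlaps one of Gm26697 on the other strand, and the strand setting of the counting is not given in the sources used here.

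**Figure D3:**
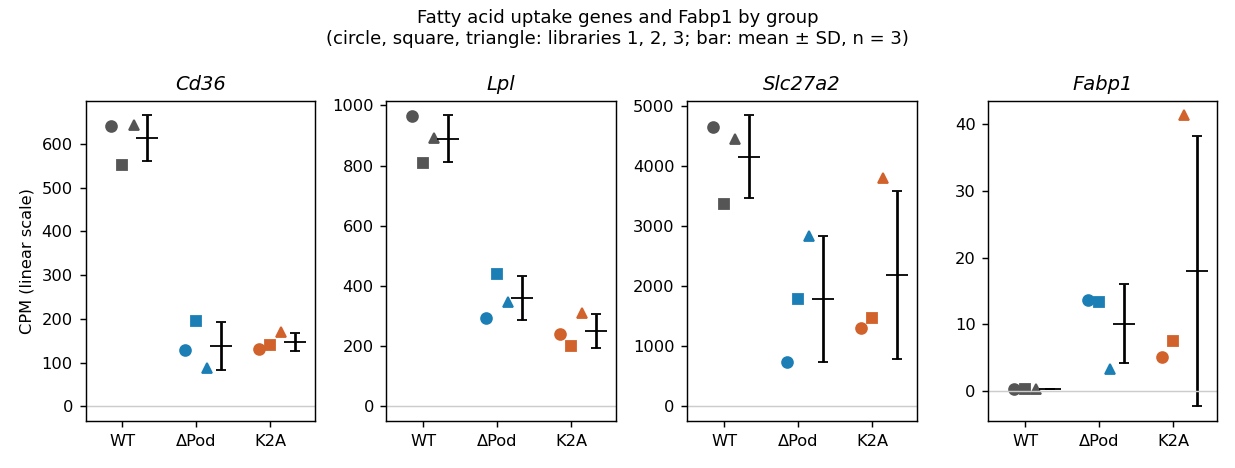
CPM of Cd36, Lpl, Slc27a2 and Fabp1 in each library by group, with libraries 1, 2 and 3 as circle, square and triangle and the mean ± SD (n = 3) as a bar. Cd36 and Lpl of both mutants lie below the lowest WT value, Slc27a2 of K2A 3 lies within the WT range, and Fabp1 is highest in K2A 3 at 41.3 CPM.

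Cd36 and Lpl are made by several cell types of the kidney and its surrounding fat, and in bulk RNA fewer cells of a type cannot be told apart from less RNA per cell. The summed level of 10 endothelial markers was 468 to 688 CPM in WT, 366 to 722 in ΔPod and 534 to 763 in K2A, with none of the 10 at 0 in a group and 0 called. The sum of 15 adipocyte markers was 57.1 to 99.8 CPM in WT (Retn, Ucp1 and Adrb3 at 0), 43.8 to 610 in ΔPod (Slc7a10 at 0) and 111 to 1463 in K2A, with 0 called. The part of fat tissue in the differences of Cd36 and Lpl was not tested. Leaving out ΔPod 1, ΔPod 2, K2A 1 and K2A 2, the libraries high in adipocyte markers, leaves 1 library per mutant, which is assumed to vary like WT, the only group that then gives a spread. In that fit the log2 fold change of Cd36 was -2.81 in ΔPod (edgeR adjusted p = 0.0482) and -1.84 in K2A (adjusted p = 0.102), and that of Lpl was -1.35 and -1.50 (adjusted p = 0.201 and 0.139). Of 15 proximal tubule markers, Slc27a2 among them, none was at 0 and 0 were called, and their sum was 54227 to 62938 CPM in WT, 32240 to 32574 in ΔPod and 32110 to 35807 in K2A. Without Slc27a2 and Kap, an androgen-driven gene, the sum was 20708 to 28277, 14325 to 25407 and 15982 to 24866 CPM. The male-biased list fell, with 11 of 11 called lower in ΔPod and 9 of 11 in K2A, and its part in the differences of Cd36, Lpl and Slc27a2 was not tested.

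The 19 mitochondrial genes gave 0 calls in either comparison with WT. Their median log2 fold change was -0.08 in ΔPod, with 7 of 19 above 0, and 0.25 in K2A, with 13 of 19 above 0. In K2A 2 of the 19 had an unadjusted p under 0.05, and in ΔPod 0 had, where 10.6% and 13.8% of all tested genes did, so these counts are no result about the 19. Counting genes whose groups did not overlap, ΔPod lay above WT for 1 of the 19 (Acaa2) and below for 3 (Acadvl, Acads and Etfdh), and K2A lay above WT for 5 (Slc25a20, Acadm, Hadhb, Eci1 and Acaa2) and below for 0. Over all 39 genes ΔPod lay wholly above WT for 2 and below for 7, where 8.73% and 9.47% of all tested genes did so, and K2A for 7 and 2, where 11.0% and 9.18% did so.

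Cpt1a (chromosome 19, 3322334 to 3385733) was at 488, 195 and 474 CPM in WT 1, WT 2 and WT 3, at 30.5, 124 and 370 CPM in ΔPod 1, ΔPod 2 and ΔPod 3, and at 78.1, 76.3 and 696 CPM in K2A 1, K2A 2 and K2A 3. In every group the long-class libraries were the high ones, by 1.304, 2.58 and 3.17 on the log2 scale, and the groups overlapped. The log2 fold change, which did not pass the edgeR test, was -1.14 in ΔPod (SE 1.07, adjusted p = 0.590), whereas for K2A it was -0.44 (SE 1.05, adjusted p = 0.890). Without the libraries high in adipocyte markers, which leaves K2A 3 alone for K2A, it was 0.87. Cpt2, which turns the carnitine esters back into coenzyme A esters, was likewise higher in the long-class libraries of every group, at 96.9 to 151 CPM in WT, 32.9 to 115 in ΔPod and 55.2 to 262 in K2A. Slc25a20, the carrier that moves acylcarnitine across the inner membrane, ran from 55.6 to 83.3 CPM in WT, 40.9 to 133 in ΔPod and 105 to 143 in K2A. Cpt1b was low throughout, at 10.3 to 14.9, 6.22 to 11.8 and 14.3 to 32.5 CPM, and was the 1 member for which K2A lay wholly above ΔPod.

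The acyl-CoA dehydrogenases open each turn of beta-oxidation and differ in the chain length they prefer. Acadvl, for very long chains, was at 355 to 367 CPM in WT, 193 to 294 in ΔPod and 279 to 579 in K2A. Acadl, for long chains, ran from 334 to 413, 247 to 443 and 354 to 510 CPM. Acadm, for medium chains, ran from 864 to 1082, 782 to 1982 and 1278 to 1478 CPM, and all K2A libraries lay above WT. Acads, for short chains, ran from 309 to 429, 195 to 265 and 196 to 343 CPM, and all ΔPod libraries lay below WT. None of these 4 passed the edgeR test in either comparison. Their electrons pass to Etfa and Etfb, the subunits of the electron transfer flavoprotein, and on to Etfdh. Etfa was at 363 to 598, 272 to 797 and 292 to 513 CPM, and Etfb at 294 to 534, 217 to 983 and 286 to 590 CPM. Both were highest in ΔPod 1 and lower in the long-class libraries of all 3 groups, whereas Etfdh, at 191 to 223, 118 to 172 and 111 to 296 CPM, was higher in them on average, although ΔPod 3 lay below ΔPod 2.

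The later steps of the spiral gave the same mix. Hadha and Hadhb, the subunits of the trifunctional protein, ran from 144 to 250, 83.7 to 305 and 150 to 541 CPM, and from 64.4 to 67.3, 50.5 to 74.9 and 71.0 to 115 CPM. Hadh, a dehydrogenase for shorter chains, ran from 625 to 763, 432 to 793 and 548 to 654 CPM, and Echs1, the hydratase of the same chains, from 271 to 440, 252 to 935 and 207 to 588 CPM. The isomerases and the reductase that deal with double bonds were Eci1 (87.7 to 137, 95.6 to 221 and 176 to 247 CPM), Eci2 (97.0 to 156, 62.9 to 140 and 114 to 167) and Decr1 (232 to 271, 136 to 249 and 208 to 431). Acaa2, the thiolase that ends each turn, was at 245, 257 and 277 CPM in WT 1, WT 2 and WT 3, at 289, 424 and 429 CPM in ΔPod 1, ΔPod 2 and ΔPod 3, and at 329, 420 and 730 CPM in K2A 1, K2A 2 and K2A 3. Acaa2 was the 1 mitochondrial gene for which both mutants lay wholly above WT, and it did not pass the edgeR test (adjusted p = 0.453 in ΔPod and 0.358 in K2A). For Eci1 all K2A libraries lay above WT, while ΔPod 3 lay within the WT range.

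The class of the library moved with many of these levels, as it did over all genes. By the difference of class means, 17 of the 39 genes (43.6%) were higher in the long class in all 3 groups and 8 (20.5%) were lower in all 3, beside 38.4% and 39.7% of all tested genes. The other 14 were mixed, Cd36 and Lpl among them. Every long-class library lay above every short-class library of its group for 13 of the 39 (33.3%, beside 34.4% of all), among them Cpt1a, Cpt2, Hadha, Hsd17b4, Abcd3, Ppara and Ppargc1a. The reverse held for 7 (17.9%, beside 35.2% of all), Acads, Hadh, Echs1, Etfa, Etfb, Acaa1a and Fabp3. Within the short class the median log2 difference of the 39 genes from WT was -0.11 in ΔPod and -0.17 in K2A, and within the long class it was -0.36 in ΔPod 3 and 0.79 in K2A 3. For all tested genes these medians lay between -0.01 and 0.04. Each class holds 1 or 2 libraries of a group, so these within-class values have no test.

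**Figure D4:**
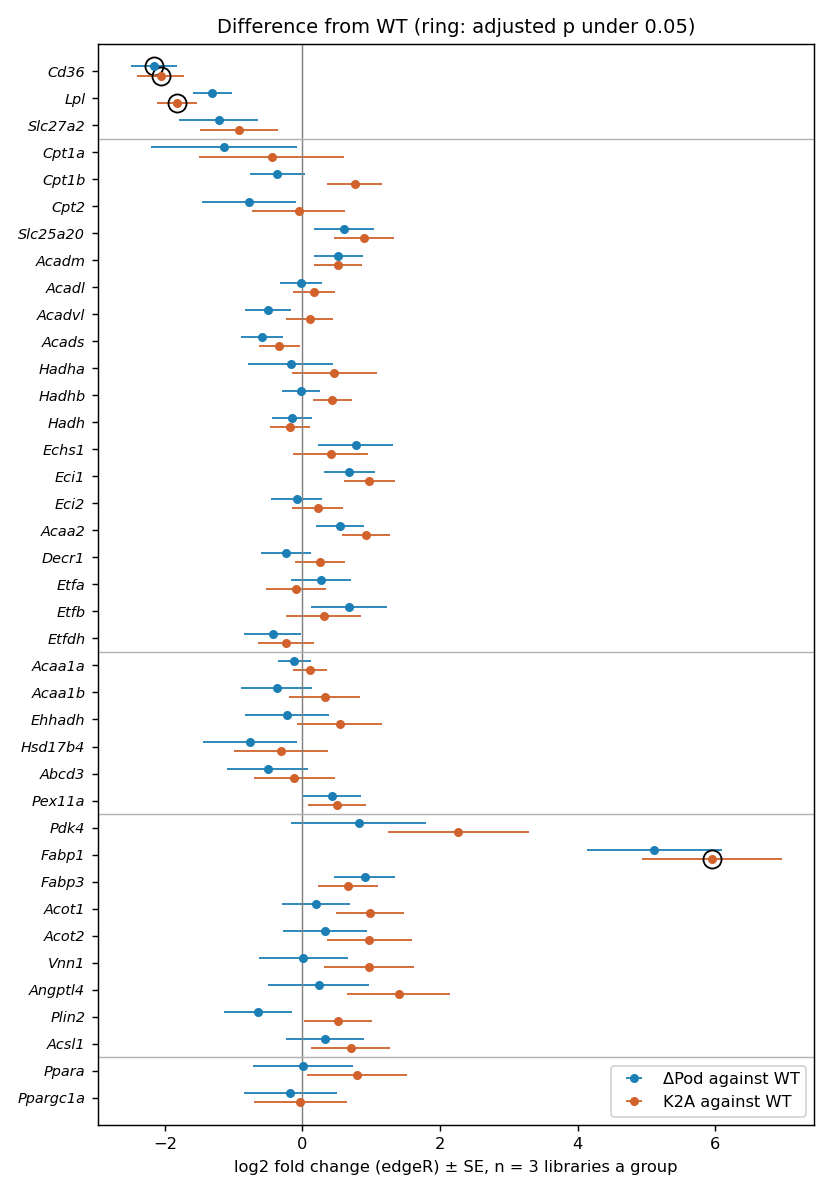
Log2 fold change against WT in ΔPod and K2A for each of the 39 genes, with edgeR standard errors as bars (n = 3 libraries a group) and a ring around values with adjusted p under 0.05. Rings mark Cd36 in both mutants and Lpl and Fabp1 in K2A, and no other value has a ring.

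The 6 peroxisomal genes gave 0 calls in either comparison with WT, and no gene of the 6 was without overlap. Their median log2 fold change was -0.30 in ΔPod and 0.22 in K2A. Ehhadh, the bifunctional enzyme of the peroxisomal spiral (chromosome 16, 21761287 to 21787807), was at 756, 559 and 756 CPM in WT 1, WT 2 and WT 3, at 471, 760 and 544 CPM in ΔPod 1, ΔPod 2 and ΔPod 3, and at 474, 399 and 2141 CPM in K2A 1, K2A 2 and K2A 3. K2A 1 and K2A 2 were below every WT library, and K2A 3 was 2.82 times the highest other library. Hsd17b4, the second bifunctional enzyme, ran from 180 to 308 CPM in WT and 93.7 to 238 in ΔPod, and was at 87.8, 89.0 and 459 CPM in K2A 1, K2A 2 and K2A 3. Abcd3, which carries acyl chains into the peroxisome, ran from 304 to 433 and 210 to 308 CPM and was at 155, 170 and 748 CPM in the same K2A libraries. K2A 3 was thus both far above its 2 companions and the highest of the 9 libraries for all 3 genes. Acaa1a and Acaa1b, near-identical thiolase genes whose reads the counting could split, ran from 158 to 188, 146 to 174 and 147 to 211 CPM, and from 247 to 285, 109 to 315 and 181 to 600 CPM. Pex11a, which helps peroxisomes divide, ran from 46.4 to 77.0, 36.4 to 102 and 66.8 to 100.3 CPM.

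The promoters of 32 of the 39 genes were in the RefSeq table used (34 promoters, GRCm38.p6, 250 bases before to 50 after the start that RefSeq gives). That start lies well inside the GENCODE gene for Cd36 (52905 bases), Eci2 (32952), Acaa1a (1618) and 1 of the 2 promoters of Acsl1 (19929), so these are other starts than the first. They were searched on both strands for the element to which PPARA with RXRA is known to bind, AGGTCA followed after 1 base of any kind by a second AGGTCA, allowing mismatches over the 12 fixed bases. At most 2 mismatches were met in 6 of the 34 promoters (17.6%), those of Fabp1, Cd36, Plin2, Echs1, Etfa and Slc25a20, beside 3.86% of all 32851 promoters in the table. Fabp1 alone had at most 1 mismatch (2.94% of the 34, beside 0.554% of all), at bases -67 to -55 from its start, and none of the 34 held an exact match (0.0396% of all). The upstream parts are shown for Fabp1, the gene that rose (chr6:71199629-71199826, plus strand), and for Plin2, a PPARA-induced gene with a match farther upstream (chr4:86670112-86670309, minus strand). Each runs 5′ to 3′ from base -250 to base -53 from the start, with the match in capitals. The match at the inner start of Cd36, TGGCCTCTGACTT, lies at bases -63 to -51, beyond the stretch read out here. A match describes letters and is not a shown binding site.
Fabp1: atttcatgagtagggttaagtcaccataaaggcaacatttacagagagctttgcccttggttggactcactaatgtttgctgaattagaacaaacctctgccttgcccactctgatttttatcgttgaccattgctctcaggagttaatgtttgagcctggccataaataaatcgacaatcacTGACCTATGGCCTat
Plin2: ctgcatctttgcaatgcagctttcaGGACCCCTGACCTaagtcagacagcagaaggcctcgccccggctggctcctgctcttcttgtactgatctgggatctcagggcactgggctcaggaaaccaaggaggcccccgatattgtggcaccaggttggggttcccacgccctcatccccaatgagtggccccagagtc

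Of the 9 PPARA-induced genes 1, Fabp1, rose in K2A and 0 passed in ΔPod. Fabp1, the fatty acid-binding protein of liver and gut (chromosome 6, 71199827 to 71205023), was nearly silent in WT, with 12, 9 and 11 counts or 0.333, 0.258 and 0.272 CPM in WT 1, WT 2 and WT 3. It was at 13.6, 13.3 and 3.28 CPM in ΔPod 1, ΔPod 2 and ΔPod 3, and at 5.11, 7.44 and 41.3 CPM in K2A 1, K2A 2 and K2A 3. All 6 mutant libraries lay above WT, with the lowest mutant value in ΔPod 3 and the highest in K2A 3. Means were 0.287 ± 0.0399, 10.1 ± 5.89 and 18.0 ± 20.3 CPM (SD, n = 3). The log2 fold change was 5.95 in K2A (SE 1.02, edgeR adjusted p = 0.0414) and 5.12 in ΔPod (SE 0.98, adjusted p = 0.0579), and the latter did not pass. The difference between K2A and ΔPod was 0.83 (SE 0.81, edgeR adjusted p = 1.0). The edgeR call in K2A held without K2A 3 (log2 fold change 4.39, adjusted p = 0.0355) and was lost without WT 1, WT 2, WT 3, K2A 1 or K2A 2 (adjusted p = 0.0782 to 0.240), with the replicate number as a block (0.0596) and in a fit on the 6 libraries compared (0.0568). Without ΔPod 3 Fabp1 passed in ΔPod (5.50, edgeR adjusted p = 0.0342), and it also passed there without a filter (adjusted p = 0.0213). Without the libraries high in adipocyte markers the log2 fold change was 3.51 for ΔPod 3 alone and 7.17 for K2A 3 alone. A list of 10 liver genes summed to 130 to 169 CPM in WT, 80.5 to 99.2 in ΔPod and 79.2 to 144 in K2A. Cps1, Ahsg and Tat were at 0 in WT and Tat at 0 in K2A, and none was at 0 in ΔPod. Of these genes 2 were called lower in ΔPod, 0 were called lower in K2A and 0 were called higher in either. The sum was not higher in the mutants, but the genes did not all move the same way. The part of liver tissue in the Fabp1 difference was not tested. A list of 5 female-biased kidney genes summed to 12.7 to 28.2 CPM in WT, 474 to 546 in ΔPod and 318 to 620 in K2A, and the part of sex in the Fabp1 difference was not tested.

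The other 8 PPARA-induced genes did not pass the edgeR test, and 7 of them had their highest value in K2A 3. Pdk4, the kinase that shuts down glucose oxidation, was at 27.8, 10.7 and 27.4 CPM in WT 1, WT 2 and WT 3, at 35.1, 67.0 and 13.8 CPM in ΔPod 1, ΔPod 2 and ΔPod 3, and at 15.5, 41.3 and 260.1 CPM in K2A 1, K2A 2 and K2A 3. Angptl4, a secreted inhibitor of Lpl, was at 39.6, 50.1 and 47.2 CPM, at 58.5, 91.4 and 11.2 CPM, and at 45.8, 99.2 and 216 CPM in the same order of libraries. Both were lowest in ΔPod 3 among the mutants and highest in K2A 3. Vnn1, a pantetheinase that recycles a building block of coenzyme A, was at 90.1, 75.0 and 89.9 CPM in WT, 57.4, 101 and 98.9 CPM in ΔPod, and 60.8, 70.2 and 367 CPM in K2A. Plin2, a coat protein of lipid droplets, was at 75.9, 75.4 and 93.7 CPM in WT, 35.2, 53.3 and 67.6 CPM in ΔPod, and 60.7, 73.7 and 215 CPM in K2A. All ΔPod libraries lay below WT for Plin2, and the K2A range overlapped WT for both genes.

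Acot1, a cytosolic thioesterase that releases free fatty acids (chromosome 12, 84009490 to 84018371), was at 84.1, 88.6 and 85.2 CPM in WT 1, WT 2 and WT 3, at 88.8, 151 and 56.1 CPM in ΔPod 1, ΔPod 2 and ΔPod 3, and at 102, 111 and 295 CPM in K2A 1, K2A 2 and K2A 3. The K2A libraries lay above WT, and ΔPod 3 lay below it. The log2 fold change was 0.98 in K2A (SE 0.50, edgeR adjusted p = 0.562) and 0.20 in ΔPod (SE 0.49, adjusted p = 0.838), and the latter turned to -0.28 without ΔPod 2. Its mitochondrial relative Acot2, with which it may share reads, ran from 20.2 to 32.4 CPM in WT, 27.4 to 45.9 in ΔPod and 22.8 to 113 in K2A. Acsl1, which joins long chains to coenzyme A, ran from 138 to 281, 113 to 418 and 236 to 613 CPM. Fabp3, the binding protein of heart and muscle, ran from 34.2 to 51.0, 36.8 to 121 and 45.4 to 74.1 CPM and, unlike the other 8, was highest in ΔPod 1. The sum of the skeletal muscle markers was also highest in ΔPod 1 (293 CPM). The part of muscle tissue in the Fabp3 levels was not tested.

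Neither regulator passed. Ppara (chromosome 15, 85734983 to 85802819) was at 28.9, 14.9 and 44.5 CPM in WT 1, WT 2 and WT 3, at 17.6, 22.5 and 48.7 CPM in ΔPod 1, ΔPod 2 and ΔPod 3, and at 21.2, 23.4 and 108 CPM in K2A 1, K2A 2 and K2A 3. Its log2 fold change was 0.01 for ΔPod (SE 0.72, edgeR adjusted p = 0.995) and 0.79 for K2A (SE 0.73, adjusted p = 0.770), and the latter was -0.45 without K2A 3. Ppargc1a (chromosome 5, 51454250 to 51567726) was at 58.3, 32.4 and 69.6 CPM in WT, 25.6, 30.9 and 85.4 CPM in ΔPod, and 28.1, 24.8 and 104 CPM in K2A, again in the order 1, 2, 3. Its log2 fold change was -0.18 for ΔPod (SE 0.68, edgeR adjusted p = 0.895) and -0.03 for K2A (SE 0.68, adjusted p = 0.987), and its sign changed with the library left out, and in K2A also with the scaling. Both regulators were higher in the long-class libraries of every group, so no direction can be given for either.

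K2A 3 stood apart from the other libraries across these genes. It held the highest of the 9 values for 27 of the 39 genes (69.2%), beside 18.4% of all tested genes. By role these were 13 of 19 mitochondrial, 4 of 6 peroxisomal, 8 of 9 PPARA-induced genes and both regulators, and 0 of 3 uptake genes. Since K2A 3 is of the long class, it was also compared with WT 1, WT 3 and ΔPod 3 alone, and there it was highest for 30 of the 39 (76.9%, beside 30.0% of all tested genes), among them all 9 PPARA-induced genes. Its log2 difference from the mean of those 3 libraries had a median of 0.96 over the 39 genes and 1.98 over the PPARA-induced ones, beside -0.02 over all tested genes, and it exceeded 1 for 17 of the 39 (43.6%, beside 4.79% of all). Within the K2A group K2A 3 was over 2 times the mean of K2A 1 and K2A 2 for 20 of the 39 (51.3%, beside 24.1% of all tested genes) and below that mean for 8 (20.5%, beside 53.0%). ΔPod 3 showed the opposite, with the lowest of the 4 long-class values for 25 of the 39 (64.1%, beside 23.1% of all). These counts describe single libraries and have no test.

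K2A against ΔPod gave 0 calls in the edgeR test, higher (0.0%) or lower (0.0%), over all tested genes, with 364 genes at an unadjusted p under 0.05, and DESeq2 called 19. None of the 39 genes passed. Cpt1b (log2 fold change 1.13, SE 0.41) and Plin2 (1.16, SE 0.50) had an unadjusted p under 0.05, 5.13% of the 39 beside 2.01% of all genes, and both had an edgeR adjusted p of 1.0. K2A lay wholly above ΔPod for 1 of the 39 and wholly below for 0, where 3.51% and 1.61% of all tested genes did so. The median log2 fold change of the 39 was 0.37, beside -0.01 over all genes, with 32 of 39 above 0. K2A 3, however, held the highest of the 9 values for 27 of the 39. Against WT of the same class, the medians of the 39 were 0.79 in K2A 3 and -0.36 in ΔPod 3. They were -0.17 in K2A 1 and K2A 2, and -0.11 in ΔPod 1 and ΔPod 2. By these medians K2A lay above ΔPod in the long class but not in the short class.

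A list of 69 further genes of fatty acid handling was read from the same fit, and 68 could be tested (Fgf21 was not). In each comparison with WT 0 of the 68 rose and 2 fell, and these were Amacr and Cyp4a12a in both. Over all tested genes 0.587% fell and 0.399% rose in ΔPod, and 0.526% fell and 0.321% rose in K2A. Amacr, the racemase for branched-chain acyl groups (chromosome 15, 10981756 to 10996626), was at 454, 590 and 447 CPM in WT, 124, 139 and 109 CPM in ΔPod, and 128, 124 and 85.7 CPM in K2A. No mutant library reached WT, and the log2 fold change was -1.999 in ΔPod (SE 0.28, edgeR adjusted p = 0.0170) and -2.14 for K2A (SE 0.28, adjusted p = 0.0165). Cyp4a12a, a fatty acid hydroxylase known to be far higher in male than in female mouse kidney, was at 114, 80.4 and 189 CPM in WT, 0.181, 0.516 and 2.499 CPM in ΔPod, and 1.49, 0.622 and 3.24 CPM in K2A. Its log2 fold change was -6.88 in ΔPod (SE 1.13, edgeR adjusted p = 0.0313) and -6.16 for K2A (SE 1.09, adjusted p = 0.0460). The male-biased and female-biased lists moved in the same comparisons, and their part in these differences was not tested.

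K2A 3 was also the highest of the 9 libraries for 26 of these 68 genes (38.2%, beside 18.4% of all tested genes). The genes named next were chosen after their values were seen. The omega-hydroxylases Cyp4a14, Cyp4a10 and Cyp4a31 reached 4782, 2858 and 1227 CPM in K2A 3, and at most 396, 393 and 260 CPM in the other 8 libraries, and the peroxisomal thioesterase Acot3 reached 131 CPM, beside at most 40.9. Cyp4a14 was at 3.32 to 7.46 CPM in WT, 96.9 to 396 in ΔPod and 152 to 4782 in K2A, so its mutant libraries lay wholly above WT, and neither comparison passed (edgeR adjusted p = 0.177 in ΔPod and 0.0740 in K2A). The Cyp4a genes are close copies of each other, so their counts are uncertain.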

How the data were processed

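Polyadenylated RNA of 9 mouse kidney samples was measured. The deposited tables hold raw counts by gene symbol, with WT and ΔPod in one and WT and K2A in the other. The submitters' processing notes name the build mm10 and the tools STAR 2.7.3a, featureCounts 2.0.1, Trim Galore 0.6.3, DESeq2 1.30.0, MultiQC 1.10.1 and FastQC 0.11.9, without their roles. Whether counting used the strand, and what became of reads with several matches, is not given in the sources used here, and 12 of the 39 genes have an exon over one of another gene, so those counts are uncertain.

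The tables held 52182 and 52169 symbols and shared 52163. The 3 with differing WT counts were left out, which left 52160. Counts were fitted in R 4.3.3 with edgeR 4.0.16 (filterByExpr, TMM, quasi-likelihood test, 1 fit of all 9 libraries with a group term), with Benjamini-Hochberg adjustment over 18067 genes at a false discovery rate of 0.05. The standard error is the size of the log2 fold change divided by the root of the F statistic. Log2 differences between libraries used CPM plus 0.1. Lengths are of the longest protein-coding transcript in GENCODE vM21, found for 17599 tested symbols (97.4%). A library is of the long class where the slope of its log2 CPM deviation on log2 length is above 0. Promoters are from RefSeq. An exact permutation test of 3 against 3 has 0.1 as its smallest p, so it was not applied. The fit was tested on simulated data with the same spread for all genes and planted changes. These data had no length classes, fat or sex differences or outlying library, so that test does not speak to those features.

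Samples were grouped by the labels. The 39 genes, the other lists and the tests were chosen with earlier results of these data known. Fold change, SE and adjusted p are given for called genes, for the 4 genes with the largest change and no overlap in each comparison with WT (mean log2 CPM of at least 1), and for Cpt1a, Ppara and Ppargc1a. The values of Plin2 and Cpt1b between the mutants, of Acaa2 and of Cyp4a10, Cyp4a14, Cyp4a31 and Acot3 were chosen after they were seen. Alternatives were other scalings, filters, DESeq2 1.42.0, limma 3.58.1 (voom), a replicate block, terms for length, fewer libraries and each library left out. Replicate numbers were not taken to pair the samples. Some genes are not reported here.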

Additional observations from a re-analysis of the deposited data

How the results depend on the processing

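The genes called in ΔPod, K2A and K2A against ΔPod (178, 153 and 0) became 998, 909 and 19 with DESeq2, 14246, 14262 and 5060 with limma-voom and sample weights, and 2589, 2860 and 33 with the length slope as a covariate. The voom weights ran from 0.0826 in K2A 3 to 11.6 in ΔPod 2. The first 2 counts became 715 and 739 with the length class as a term, and 270 and 232 with a replicate block, while ΔPod had 54 in a fit on the 6 libraries compared and 97 without the libraries high in adipocyte markers. Leaving out each library gave 23 to 411 (lowest without WT 3, highest without ΔPod 3), 3 to 173 (without WT 1, without K2A 3) and 0 to 2.

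Of the 39 genes, 0 higher and 1 lower in ΔPod became 1 and 2 with DESeq2 or the length class, 1 and 1 without a filter or without the libraries high in adipocyte markers, 16 and 15 with voom weights, 3 and 4 with the length slope, and 0 and 0 with upper quartile scaling or the 6 libraries alone. In K2A 1 higher and 2 lower became 12 and 15 with voom weights, 7 and 4 with the length slope, 0 and 2 with a replicate block, with the 6 libraries alone or with voom without weights (chosen after seeing the data), 1 and 1 with upper quartile scaling, and 1 and 0 with library size alone or without the libraries high in adipocyte markers. K2A against ΔPod gave 3 and 14 with voom weights. Leaving out each library gave 0 to 1 higher and 0 to 1 lower in ΔPod, and 0 to 1 and 0 to 1 in K2A. Cd36, Lpl, Slc27a2 and Fabp1 kept their direction in all 19 alternatives of each comparison with WT, with log2 fold changes of -2.81 to -1.72, -1.51 to -1.10, -1.74 to -0.54 and 3.51 to 5.65 in ΔPod, and -2.24 to -1.84, -2.07 to -1.50, -1.70 to -0.11 and 4.30 to 7.17 in K2A. In ΔPod, where neither was called, Lpl passed under 4 and Fabp1 under 7 of the 19.

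Without the libraries high in adipocyte markers the sign turned for Acot1 in ΔPod (-0.60), Cpt1a in K2A (0.87) and Ppargc1a (0.69 and 0.97). Ppara in ΔPod was -0.0048 with RLE scaling, -0.0527 without a filter, -0.0049 with DESeq2, -0.56 with voom weights and -0.0273 with a replicate block, and in K2A -0.56 with voom weights. Ppargc1a was 0.38 and 0.28 with the length slope and 0.17 and 0.21 with the length class, and in K2A 0.0517 with upper quartile scaling and 0.0471 with library size alone. Leaving out each library gave -0.28 to 0.45 for Acot1 in ΔPod, -0.59 to 0.40 and -0.45 to 1.19 for Ppara, and -0.96 to 0.11 and -1.06 to 0.29 for Ppargc1a in ΔPod and K2A. The cause of these changes was not tested.

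Same-numbered libraries had correlations of deviations from -0.62 to 0.85, and 7 of the 9 pairs were over 0.1. Differently numbered libraries also reached high values, such as 0.80 for WT 2 with ΔPod 1 and 0.63 for WT 1 with ΔPod 3. The numbers were therefore not taken as pairs. Besides the calls named here the replicate block changed none of the 39. Each group of 3 libraries held both length classes, but unevenly. The long class held WT 1 and WT 3, and of the mutants only ΔPod 3 and K2A 3. Length class is thus partly mixed with genotype in the comparisons with WT. The fit without the libraries high in adipocyte markers has 1 library per mutant, assumed to vary like WT, so its counts and calls show little about stability.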
